A study of Mus musculus with 24 samples.

Results

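Myosin light chains are the small subunits that bind the neck of the myosin heavy chain, and each myosin head carries an essential and a regulatory one. In skeletal muscle the regulatory chain of fast fibres comes from Mylpf and the essential chain from Myl1, while Myl4 encodes the essential chain of embryonic muscle and atrium. In fibroblasts and other nonmuscle cells myosin II carries the essential chain Myl6 and the regulatory chains Myl12a and Myl12b, whose phosphorylation switches the motor on. Myl6b encodes another essential chain of slow muscle and nonmuscle cells. The values below cover these 7 genes, 3 sarcomeric and 4 nonmuscle, out of 35200 genes named in the files and 16680 tested. They were taken by gene name from the transcript lines of all 24 libraries, and all 7 passed the filter of at least 1 TPM in at least 2 libraries.

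The cells were C3H 10T1/2, a mouse embryo fibroblast line that the transcription factor MyoD can turn toward muscle. The 3 lines were LncMyoD-KO clone 1, LncMyoD-KO clone 2 and the WT parent, LncMyoD being a long noncoding RNA encoded near Myod1. Each was given MyoD adenovirus together with an LncMyoD plasmid, MyoD adenovirus alone, plasmid alone, or no treatment, which makes 12 groups of 2 libraries. Each knockout line is 1 clone, so a clone and its genotype cannot be told apart. No group received an empty virus or plasmid, and per the labels the medium went from 10% fetal bovine serum to 2% horse serum with transdifferentiation, so medium, infection and MyoD may go together. The labels do not say that replicates came from separate cultures, so p-values measure the spread between these libraries, which may be technical.

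Libraries of clone 2 stood apart. Sequence of the ribosomal RNA window held 2.68 to 7.90% of TPM in clone 2, against 36.8 to 70.0% in clone 1 and 55.6 to 69.2% in WT. Between 10412 and 13245 genes reached 1 TPM in clone 2, against 4274 to 5758 in clone 1 and 5446 to 6964 in WT, at depths of 2.43 to 5.93 gigabases per library over all lines. TPM is a share of a library, so levels set between lines move with these shares. In the 12 libraries given MyoD, Myod1 was at 930 to 1222 TPM in clone 2, 1665 to 3641 TPM in clone 1 and 3301 to 3735 TPM in WT. It was at 0 to 3.76 TPM in the 12 others. A spliced unnamed transcript on the minus strand within the 60 kb before Myod1 appeared in all 12 plasmid libraries and in 1 of the 12 without plasmid, which checks the plasmid labels and not the knockout. All 10 fibroblast marker genes were tested, and their summed TPM was 2874 to 14965 in clone 2, 196 to 245 in clone 1 and 372 to 537 in WT. In bulk RNA, fewer cells of a type and less RNA per cell cannot be told apart.

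Mylpf and Myl1 were the light chains that answered MyoD. Both were listed at 0 TPM in every library without MyoD, in all 3 lines, on transcripts that carry the gene's name. With MyoD, Mylpf reached 124 to 261 TPM in clone 2, at most 0.393 TPM in clone 1 and 1.13 to 2.42 TPM in WT. The nonmuscle chains Myl6, Myl12a and Myl12b were higher in clone 2 than in the other lines in every treatment on deposited TPM. For Myl12b against WT without MyoD, that direction turned round under median-of-ratios scaling.

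**Figure D1:**
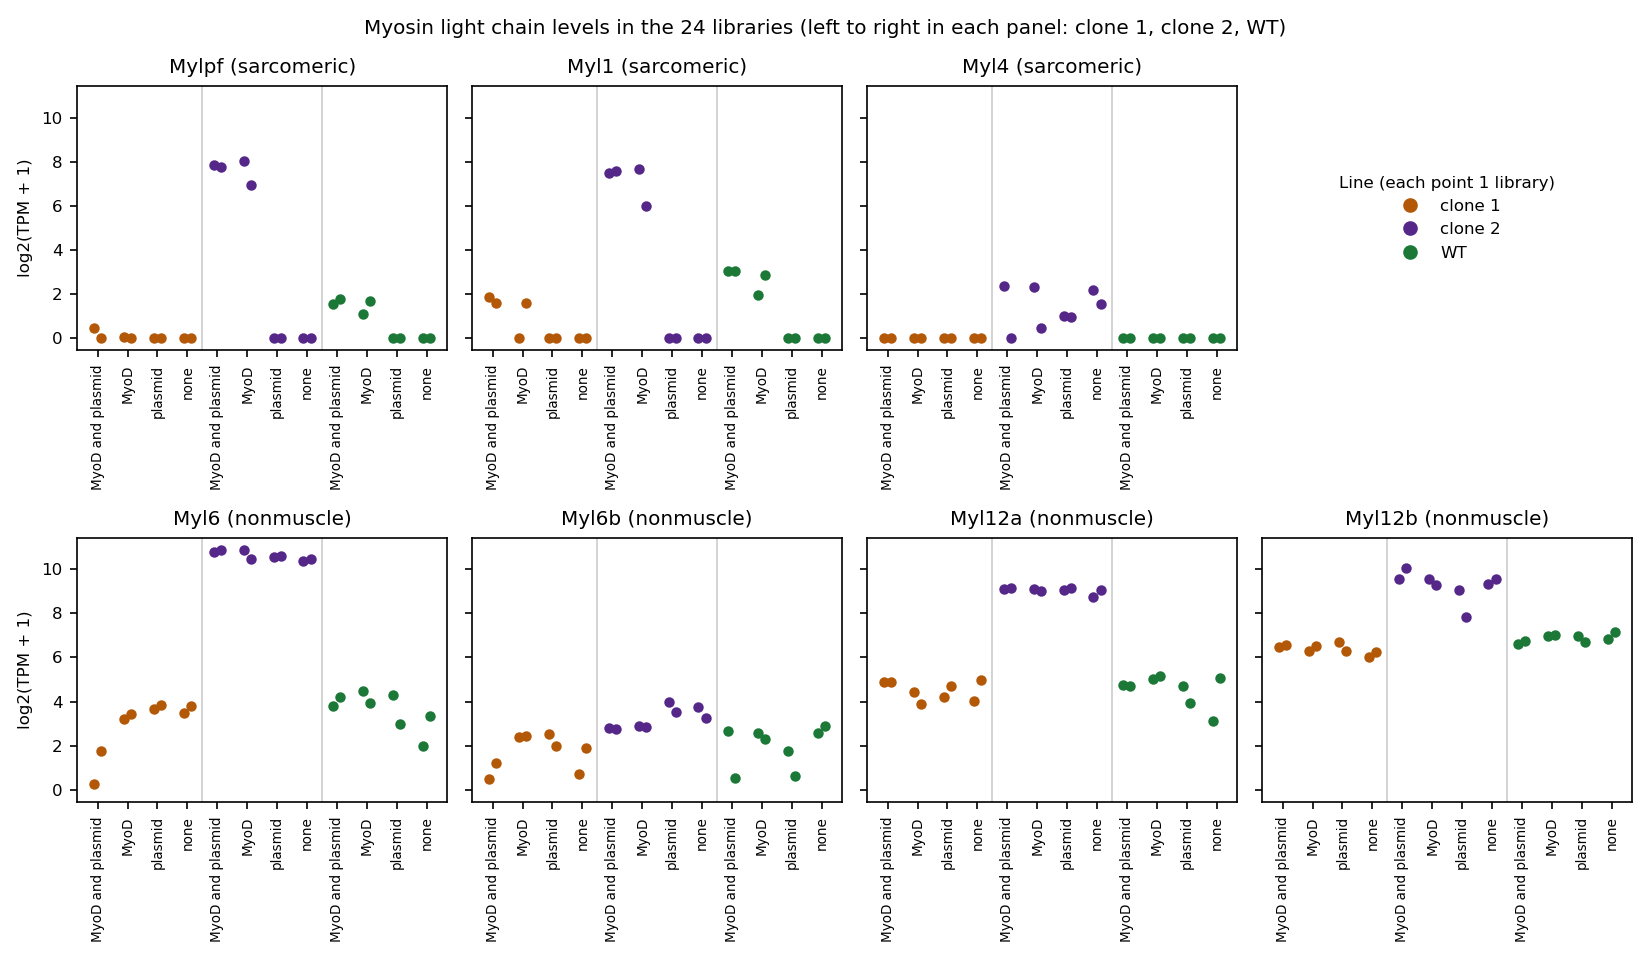
Levels of the 7 myosin light chains as log2(TPM + 1) on the vertical axis, 1 panel per gene and 1 point per library, with clone 1, clone 2 and WT from left to right and the 4 treatments within each line. Mylpf and Myl1 leave 0 only in the groups given MyoD, at 124 to 261 and 63.8 to 203.6 TPM in clone 2. Myl6, Myl12a and Myl12b are higher in clone 2 in every treatment. For Myl12b against WT without MyoD, that direction turns round under median-of-ratios scaling.

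Mylpf lies at chromosome 7, 127208890 to 127214298 on the plus strand of mm10 (GENCODE vM21), and encodes the fast skeletal regulatory chain. In clone 2 it was at 261 and 124 TPM with MyoD and at 234 and 218 TPM with MyoD and plasmid. In clone 1 the values were 0.0196 and 0.0111 TPM with MyoD and 0.393 and 0.00631 TPM with both. In WT they were 1.13 and 2.20 TPM with MyoD and 1.97 and 2.42 TPM with both. On transcripts with a gene name, the MyoD and no-MyoD libraries therefore did not overlap in any line, but in clone 1 the levels stayed under 1 TPM. With transcripts without a gene name counted in, as described below, the clone 1 libraries overlapped. The share of all genes separated in this way with MyoD was not counted for any line.

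Myl1 lies at chromosome 1, 66924295 to 66945404 on the minus strand, and encodes the fast skeletal essential chain. It was at 203.6 and 63.8 TPM in clone 2 with MyoD and at 181 and 194 TPM with both agents. In clone 1 it was at 0 and 2.03 TPM with MyoD and at 2.67 and 2.06 TPM with both. In WT it was at 2.90 and 6.18 TPM with MyoD and at 7.19 and 7.19 TPM with both. Only clone 1 overlapped its libraries without MyoD, through the 1 library listed at 0. The lowest clone 2 library for both genes was MyoD replicate 2.

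With MyoD the Mylpf difference on the log2(TPM + 1) scale was 7.66 ± 0.231 (SE) in clone 2, where the 4 libraries averaged 209 ± 59.7 TPM (SD, n = 4) with MyoD against 0 TPM in all 4 without it. The Myl1 difference was 7.20 ± 0.353 in clone 2, where the MyoD libraries averaged 161 ± 65.2 TPM (SD, n = 4). Both were called by limma with Benjamini-Hochberg adjustment, at adjusted p = 7.50e-12 for Mylpf and 1.57e-09 for Myl1, a call being an adjusted p under 0.05 and a log2 difference of at least 1 in size. They were 2 of 7 light chains tested, where 18.9% of all genes tested were called in that comparison. Since the libraries without MyoD were listed at 0, these differences depend on the pseudocount and are no bound on the fold change.

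In WT cells Mylpf rose by 1.53 ± 0.231 and Myl1 by 2.72 ± 0.353 on the log2(TPM + 1) scale with MyoD (limma adjusted p = 0.00725 and 0.00213). They were again 2 of 7, against 0.150% of all genes called, and they averaged 1.93 ± 0.565 TPM for Mylpf and 5.86 ± 2.03 TPM for Myl1 with MyoD (SD, n = 4 each). The Mylpf call was lost without WT MyoD and plasmid replicate 2 (difference 1.48, adjusted p = 0.0506) and in a fit of the 8 WT libraries alone (1.53, adjusted p = 0.213), in which Myl1 was called (adjusted p = 0.0236). With the groups without plasmid alone in the contrast, neither was called, at 1.39 (adjusted p = 0.199) for Mylpf and 2.40 (adjusted p = 0.109) for Myl1.

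In clone 1 no light chain was called with MyoD, 0 of 7, against 0.0959% of all genes, and 2 of 7 had an unadjusted limma p under 0.05. These were Myl1, with a difference of 1.27 ± 0.353 (adjusted p = 0.295), and Myl6, with −1.54 ± 0.347 (adjusted p = 0.121). Mylpf differed by 0.13 ± 0.231. The clone 1 values of Mylpf came from retained-intron transcripts alone, since the coding transcript of Mylpf was listed in 8 libraries, the 4 of clone 2 and the 4 of WT with MyoD.

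StringTie also lists transcripts that carry no gene name. Where each of these was counted to a gene on its strand whose exons covered 50% or more of it, Myl1 in clone 1 was at 4.52 and 2.03 TPM with MyoD and at 4.16 and 4.02 TPM with both, against 0 TPM in all 4 libraries without MyoD. Myl1 was then called in clone 1, at 2.19 ± 0.369 (limma adjusted p = 0.0183), with 0.115% of all genes called. Mylpf in clone 1 was then at 0.778 to 1.57 TPM with MyoD, against 0 to 1.07 TPM without it, and was not called (0.77 ± 0.273, adjusted p = 0.453). Under the same assignment both chains were called in WT, with 0.135% of all genes called. Myl1 in untreated clone 2 replicate 1 was then at 3.14 TPM, against 112 to 312 TPM in clone 2 with MyoD.

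The response to MyoD was larger in clone 2 than in WT for both chains. The difference between the responses was 6.13 ± 0.327 for Mylpf and 4.48 ± 0.4997 for Myl1 on the log2(TPM + 1) scale (limma adjusted p = 2.62e-08 and 3.64e-05). These were 2 of 7 light chains, against 10.9% of all genes called. Under median-of-ratios scaling, in which a typical gene has the same level in every library, the Mylpf difference was 3.58 (adjusted p = 7.90e-05) and that of Myl1 was 1.83 and not called (adjusted p = 0.166). The share of ribosomal sequence, the number of genes detected and the Myod1 level with MyoD differed between these lines, and their part in the result was not tested. The clone 1 response was lower than that of WT by 1.40 ± 0.327 for Mylpf and 1.45 ± 0.4997 for Myl1, which were not called (adjusted p = 0.316 and 0.813). There 0 of 7 light chains were called against 0.0120% of all genes, and 3 of 7 had an unadjusted p under 0.05. With unnamed transcripts assigned, 0 of 7 had an unadjusted p under 0.05 for the clone 1 response.

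**Figure D2:**
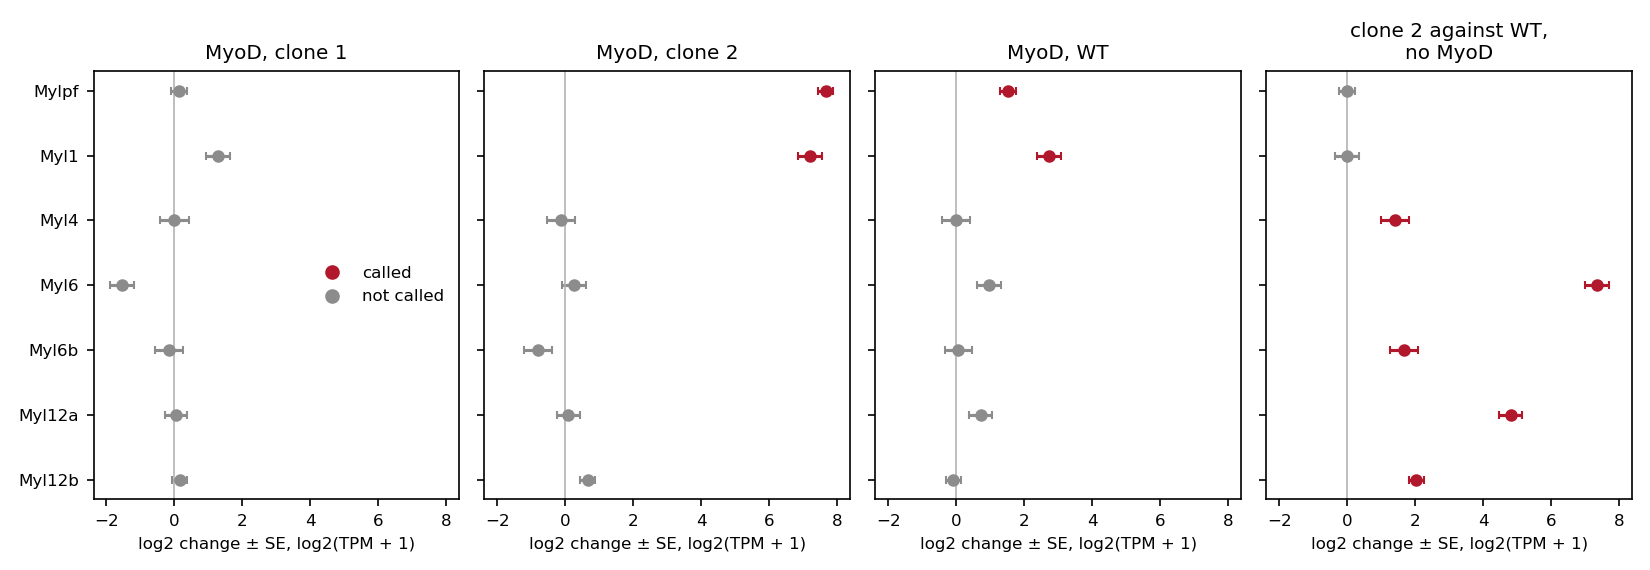
Log2 change of each light chain on the log2(TPM + 1) scale (horizontal axis, point with SE) for MyoD in clone 1, clone 2 and WT and for clone 2 against WT without MyoD. Red points were called, with an adjusted p under 0.05 and a change of 1 or more in size. With MyoD these are Mylpf and Myl1, in clone 2 and WT, and between the lines they are Myl4 and the 4 nonmuscle chains.

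Mylpf and Myl1 moved together, so their promoters are shown, 250 bases before and 50 bases from the first base of the RefSeq gene start (GRCm38.p6, the mm10 assembly), each in its own strand's direction. Capitals mark the E-box CAGCTG, a sequence of the kind MyoD is known to bind. The Mylpf window is chr7:127211358-127211657 on the plus strand and the Myl1 window is chr1:66945007-66945306 on the minus strand, at the start of its long form. No window was taken at the separate start of the Myl1 short form, although the long form was at most 21.5% of coding Myl1 in WT.
Mylpf promoter: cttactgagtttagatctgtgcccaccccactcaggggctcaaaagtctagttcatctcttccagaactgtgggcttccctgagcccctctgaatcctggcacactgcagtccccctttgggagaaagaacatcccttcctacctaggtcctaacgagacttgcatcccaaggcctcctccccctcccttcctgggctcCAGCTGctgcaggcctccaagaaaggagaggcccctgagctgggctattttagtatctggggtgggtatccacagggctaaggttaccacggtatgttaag
Myl1 promoter: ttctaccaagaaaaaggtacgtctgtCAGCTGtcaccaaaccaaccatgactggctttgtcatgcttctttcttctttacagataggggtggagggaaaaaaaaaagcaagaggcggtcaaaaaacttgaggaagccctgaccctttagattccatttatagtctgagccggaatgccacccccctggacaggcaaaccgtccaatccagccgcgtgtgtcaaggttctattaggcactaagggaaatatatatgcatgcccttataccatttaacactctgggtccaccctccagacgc

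The motif starts 51 bases before the first base of Mylpf and 224 bases before that of Myl1. CAGCTG, which reads the same on both strands, was present in 16.3% of 32851 RefSeq promoters of this length, and the general E-box CANNTG, which contains it, in 72.3%. Among the other chains, the Myl4 window had 0 matches to CANNTG, the first Myl6 window had 1, that of Myl6b 2, that of Myl12a 3, of which 1 was CAGCTG, and that of Myl12b 1. Myl12a, which holds CAGCTG as well, differed by 0.09 with MyoD in clone 2 and was not called (adjusted p = 0.898). A match of letters is a description and not a binding site.

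Myl1 makes a long and a short essential chain from separate first exons, and the clone 2 libraries with MyoD listed both. The starts of the coding sequences are shown because the share of the forms differed between libraries, with the bases of each form's own in capitals and the first shared bases in lower case (chromosome 1, minus strand, mm10).
Myl1 long form: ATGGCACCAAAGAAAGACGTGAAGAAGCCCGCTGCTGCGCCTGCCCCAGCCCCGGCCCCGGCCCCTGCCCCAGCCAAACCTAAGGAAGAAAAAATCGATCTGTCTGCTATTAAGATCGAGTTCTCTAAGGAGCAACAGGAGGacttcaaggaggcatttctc
Myl1 short form: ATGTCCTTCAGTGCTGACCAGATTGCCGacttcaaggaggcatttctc

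The long form has 188 codons and 142 coding bases of its own, and the short form 150 codons and 28 bases of its own. In clone 2 the long form was at 42.3 and 37.0 TPM with MyoD and at 46.9 and 84.9 TPM with both agents. The coding transcripts of the short form, summed, were at 129 and 19.4 TPM with MyoD and at 101 and 83.1 TPM with both. The long form thus made up 24.8% and 65.6% of coding Myl1 with MyoD and 31.7% and 50.5% with both, so the 2 replicates of each group stood far apart. In clone 1 the long form was listed at 0 TPM in every library. In WT it made up 0 and 21.5% with MyoD and 12.1% and 10.6% with both, all below the lowest clone 2 value. These WT shares rest on low levels, with all named Myl1 at 2.90 to 7.19 TPM. The shares of every line leave out Myl1 transcripts without a gene name. In clone 2 those held 31.9 and 48.3 TPM with MyoD and 111 and 118 TPM with both, and in WT at most 2.82 TPM. The split of reads between forms is StringTie's estimate, its error is not given in the files, and the difference between lines was not tested.

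Myl4, the embryonic and atrial essential chain, did not follow Mylpf and Myl1. It lies at chromosome 11, 104550663 to 104595753 on the plus strand, and was listed at 0 TPM in all 16 libraries of clone 1 and WT. In clone 2 it was at 4.05 and 0.361 TPM with MyoD, 4.19 and 0 TPM with both, 0.984 and 0.915 TPM with plasmid and 3.53 and 1.90 TPM without treatment. The groups overlapped, and the difference with MyoD was −0.12 ± 0.419 (limma adjusted p = 0.894). Without MyoD, clone 2 was above WT by 1.41 ± 0.419 (adjusted p = 0.00682), against WT libraries all listed at 0. Myl4 passed the filter only through clone 2, so this difference comes from the line that let it in. Under median-of-ratios scaling Myl4 did not pass the filter. With unnamed transcripts assigned, untreated clone 2 replicate 2 had 13.4 TPM of Myl4, above every clone 2 library with MyoD.

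On deposited TPM the nonmuscle chains were far higher in clone 2 than in WT, which for Myl6b and Myl12b did not hold under median-of-ratios scaling. Without MyoD, Myl6 was at 1315 to 1557 TPM in the 4 clone 2 libraries and at 2.999 to 18.4 TPM in the 4 WT libraries. Myl12a, a nonmuscle regulatory chain, was at 423 to 573 TPM in clone 2 and 7.54 to 32.7 TPM in WT. Myl12b, its near twin, was at 229 to 764 TPM in clone 2 and 105 to 141 TPM in WT. Myl6b was at 8.40 to 14.8 TPM in clone 2 and 0.511 to 6.33 TPM in WT. For these genes every clone 2 library without MyoD was above every WT one. The share of all genes separated in this way was not counted, and 10328 of 16680 genes were called higher in clone 2.

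On the log2(TPM + 1) scale these differences were 7.35 ± 0.347 for Myl6, 4.81 ± 0.333 for Myl12a, 2.04 ± 0.214 for Myl12b and 1.67 ± 0.405 for Myl6b. All 4 were called (limma adjusted p = 2.89e-11, 2.23e-09, 3.27e-07 and 0.00162), and with Myl4 they made 5 of 7 light chains. Myl4 passed the filter only through clone 2, so the share of all genes called is no fair measure for it. In the same comparison 63.8% of all genes were called, 10328 of them higher in clone 2 and 307 lower, and the median gene was 1.72 higher. Relative to that median, Myl6 was 5.63 higher in clone 2 and Myl12a 3.09 higher, Myl12b was 0.32 higher, and Myl6b was −0.05 from it. Under median-of-ratios scaling 3524 genes were called higher and 1779 lower, Myl6 and Myl12a were still called higher in clone 2, at 4.15 (adjusted p = 1.28e-07) and 1.59 (adjusted p = 0.000358), Myl12b was called lower, at −1.21 (adjusted p = 0.000102), and Myl6b was at −0.87 (adjusted p = 0.153). Without ribosomal and mitochondrial sequence Myl12b (0.62) and Myl6b (0.63) were no longer called, while Myl6 (6.06) and Myl12a (3.45) were, and 8283 genes were called higher and 842 lower.

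**Figure D3:**
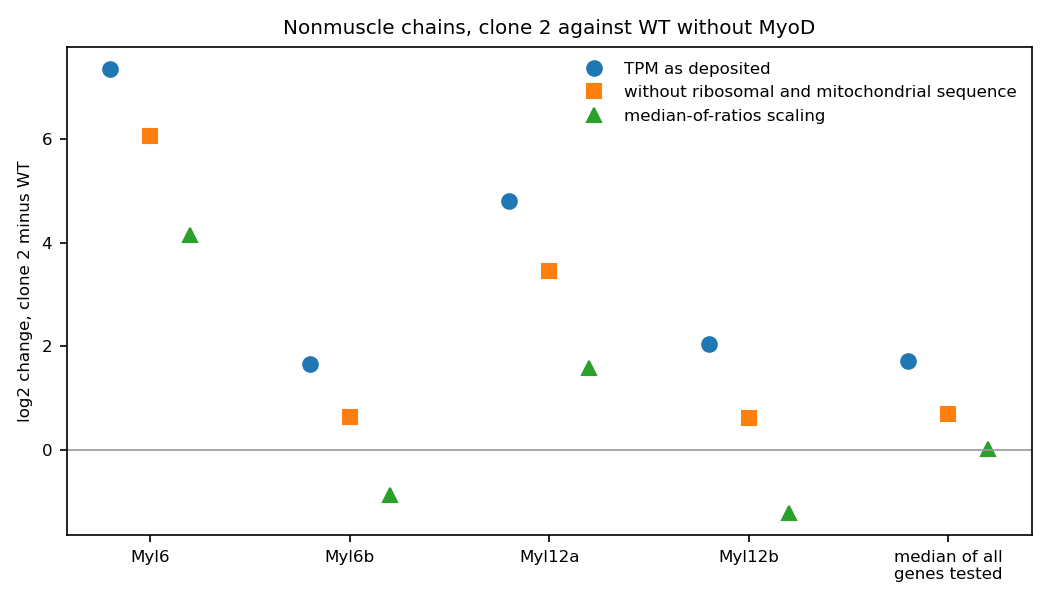
Log2 difference of the 4 nonmuscle light chains, clone 2 minus WT without MyoD, under 3 scalings of the same TPM, beside the median of all genes tested. Myl6 and Myl12a stay above 1 under each scaling, whereas Myl12b is at 2.04, 0.62 and −1.21 and Myl6b at 1.67, 0.63 and −0.87.

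MyoD was not followed by a call for any nonmuscle chain in any line. Myl6 in clone 2 was at 1916 and 1418 TPM with MyoD and 1754 and 1894 TPM with both, against 1315 and 1421 TPM without treatment and 1494 and 1557 TPM with plasmid. The libraries overlapped, and the difference was 0.26 ± 0.347 (limma adjusted p = 0.642). In WT Myl6 was at 21.4 and 14.4 TPM with MyoD and 13.1 and 17.2 TPM with both, against 2.999 and 9.29 TPM without treatment and 18.4 and 6.77 TPM with plasmid, a difference of 0.96 ± 0.347 (adjusted p = 0.974). In clone 1 it was at 8.19 and 9.72 TPM with MyoD and 0.188 and 2.32 TPM with both, against 10.1 and 12.9 TPM without treatment and 11.8 and 13.1 TPM with plasmid. All 4 clone 1 libraries with MyoD were below all 4 without it, but the −1.54 difference was not called on deposited TPM, whereas it was at −1.89 under median-of-ratios scaling (adjusted p = 0.0116) and at −2.15 without ribosomal and mitochondrial sequence (adjusted p = 0.0168). With unnamed transcripts assigned, the clone 1 libraries with MyoD were at 11.5, 11.8, 11.5 and 12.8 TPM and the difference was −0.13 (adjusted p = 1). The low named values of clone 1 with MyoD and plasmid thus went with Myl6 sequence assembled under no gene name.

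Myl12b in clone 2 was at 751 and 619 TPM with MyoD and at 752 and 1062 TPM with both, against 652 and 764 TPM without treatment and 527 and 229 TPM with plasmid. The difference of 0.65 ± 0.214 passed the p threshold (limma adjusted p = 0.0353) but not the size of 1. It came to −0.05 with the groups without plasmid alone in the contrast and to 1.11 under median-of-ratios scaling, where it was called (adjusted p = 0.00215). The low library was plasmid replicate 2. Myl12a in clone 2 was at 516 to 570 TPM with MyoD and at 423 to 573 TPM without it, a difference of 0.09 ± 0.333. Myl6b in clone 2 was at 5.68 to 6.47 TPM with MyoD and at 8.40 to 14.8 TPM without it, and although these did not overlap the difference of −0.80 ± 0.405 was not called (adjusted p = 0.164). In that comparison the median of all genes was −0.334, with 257 genes called higher and 2892 lower, against 281 higher and 369 lower under median-of-ratios scaling.

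No light chain was called between clone 1 and WT. Without MyoD these were 0 of 7, against 4.15% of all genes, and 1 of 7, Myl12b, had an unadjusted limma p under 0.05. Myl12b was at 63.0 to 105 TPM in clone 1 and 105 to 141 TPM in WT, a difference of −0.60 ± 0.214 (adjusted p = 0.136). Myl6 was at 10.1 to 13.1 TPM in clone 1 and 2.999 to 18.4 TPM in WT, and Myl12a at 15.4 to 30.2 TPM in clone 1 and 7.54 to 32.7 TPM in WT, so the lines overlapped. Myl6b was at 0.652 to 4.69 TPM in clone 1 and 0.511 to 6.33 TPM in WT, again with overlap. Over all genes 26 were called higher and 667 lower in clone 1, against 125 higher and 330 lower under median-of-ratios scaling, with a median of −0.125 on deposited TPM.

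The plasmid was not followed by a call for any light chain. Over the 3 lines, 0 of 7 were called with plasmid against without it in cells without MyoD, where 0.0480% of all genes were called and 0 of 7 had an unadjusted limma p under 0.05. In cells given MyoD, 0 of 7 were called against 0.270% of all genes, and 3 of 7 had an unadjusted p under 0.05. These were Myl1 at 0.76 ± 0.289 (adjusted p = 0.440), Myl6 at −0.80 ± 0.284 (adjusted p = 0.382) and Myl6b at −0.84 ± 0.330 (adjusted p = 0.476). Mylpf differed by 0.28 ± 0.189 (adjusted p = 0.802). With unnamed transcripts assigned, 0 of 7 had an unadjusted p under 0.05 in cells given MyoD. Myl1 was then at 0.58, Myl6 at −0.10 and Myl6b at −0.44. In cells without MyoD, Myl12b at −0.39 then had an unadjusted p under 0.05 and was not called.

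The balance of sarcomeric and nonmuscle chains was set per library as the share of Mylpf, Myl1 and Myl4 in the summed TPM of the 7 chains. With MyoD this share was 12.7% and 6.84% in clone 2 and 12.1% and 10.4% with plasmid as well. In clone 1 it was 0.0176% and 1.68%, and 2.54% and 1.60% with plasmid as well. It was 2.17% and 4.43% in WT, and 6.14% and 6.02% with plasmid as well. Without MyoD it was 0.0382 to 0.147% in clone 2, all of it Myl4, and 0 in clone 1 and WT. With MyoD every clone 2 library was above every library of the other lines, while the highest clone 1 library, at 2.54%, was above the lowest WT one. The median share with MyoD was 11.2% in clone 2, 1.64% in clone 1 and 5.22% in WT, and with unnamed transcripts assigned it was 13.3%, 3.58% and 5.79% in the same order.

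**Figure D4:**
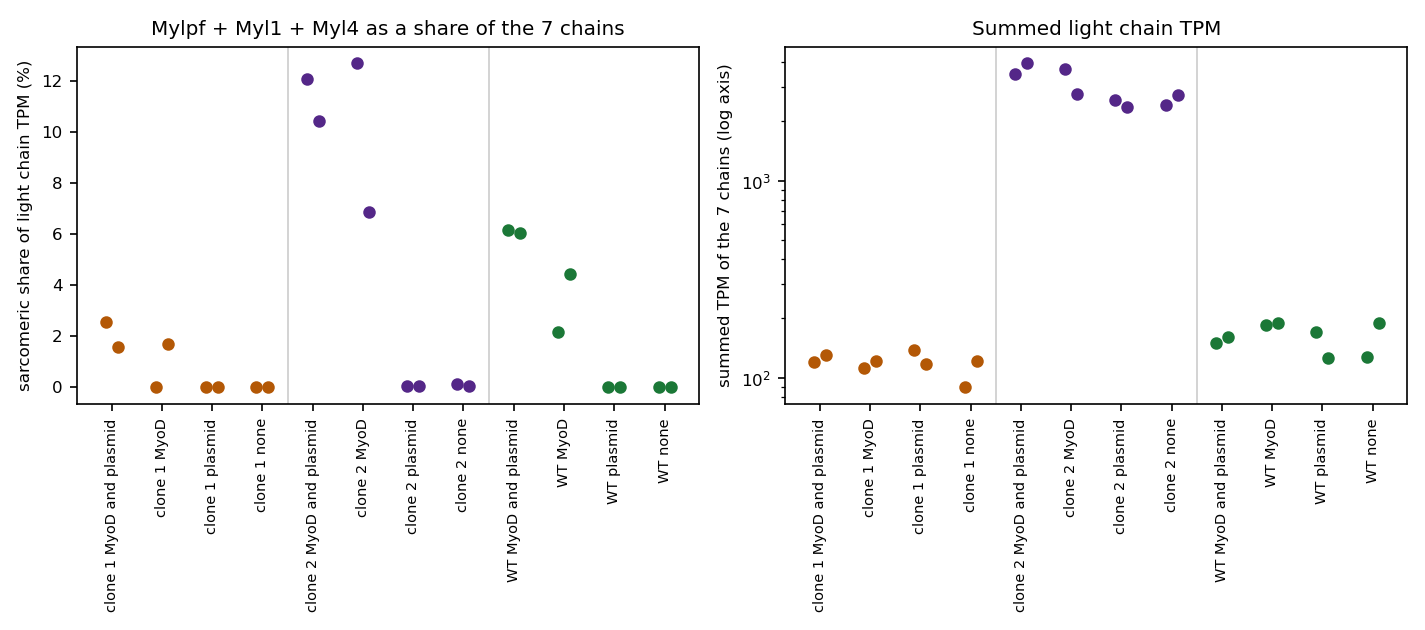
Left, TPM of Mylpf, Myl1 and Myl4 as a percentage of the 7 light chains, 1 point per library, and right, the summed TPM of the 7 chains on a log axis, with clone 1, clone 2 and WT from left to right. The sarcomeric share is 6.84 to 12.7% in clone 2 with MyoD, at most 2.54% in clone 1 and 2.17 to 6.14% in WT with MyoD, while the summed TPM is 2371 to 3944 in clone 2, 89.1 to 139 in clone 1 and 126 to 189 in WT.

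The make-up of the nonmuscle chains also differed between the lines. Myl6 held 48.0 to 65.7% of light chain TPM in clone 2, 0.156 to 11.3% in clone 1 and 2.36 to 11.6% in WT. Myl12b held 9.68 to 28.0% in clone 2, 62.3 to 75.5% in clone 1 and 64.3 to 87.8% in WT. A ratio of nonmuscle essential to regulatory TPM was taken as Myl6 and Myl6b over Myl12a and Myl12b. It was 1.11 to 1.95 in clone 2, 0.00489 to 0.159 in clone 1 and 0.0613 to 0.170 in WT. The regulatory chain Myl9, at 320 to 458 TPM in clone 2, was left out, and counting it would lower the ratio. Once unnamed transcripts were assigned, Myl6 held 46.6 to 65.5% in clone 2, 8.17 to 11.2% in clone 1 and 8.16 to 12.6% in WT, and the ratio was 1.11 to 1.95 in clone 2, 0.111 to 0.166 in clone 1 and 0.125 to 0.181 in WT. Each myosin head binds 1 chain of each kind, and a ratio of TPM within a library does not move with a scaling of the whole library. In cells given MyoD the ratio of Mylpf to Myl1 was 1.12 to 1.94 in clone 2 and 0.274 to 0.391 in WT, and with unnamed transcripts assigned 0.698 to 1.15 in clone 2 and 0.242 to 0.301 in WT.

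Myl6 transcripts end in one of a pair of coding sequences, through an alternative exon of 45 nt at chromosome 10, 128491720 to 128491764, minus strand. The ends are shown because both were listed in clone 2 in every library, with the last shared bases in lower case, the 26 bases of each form's own in capitals, and the stop codon left out.
Myl6 with the exon: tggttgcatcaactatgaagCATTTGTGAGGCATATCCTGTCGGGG
Myl6 without the exon: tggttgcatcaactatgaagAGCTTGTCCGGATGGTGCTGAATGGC

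Both forms have 151 codons. The form with the exon had a median of 1184 TPM and the form without it 260 TPM over the 8 clone 2 libraries. The form with the exon made up 76.1 to 87.0% of the pair in clone 2, 56.3 to 84.5% in the 6 clone 1 libraries that listed either, and 63.7 to 95.8% in 7 WT libraries. These ranges overlapped between the lines. Myl6b, 11 bases from Myl6 on the same strand, was listed almost only as a retained-intron transcript of 1 exon and 1243 nt, at up to 14.8 TPM. Its coding transcript was listed in 1 library, at 0.0174 TPM, so the Myl6b values are not a measure of coding Myl6b mRNA.

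Myl12a (chromosome 17, 70993656 to 71002878) and Myl12b (70973133 to 70990890) are neighbours 2765 bases apart on the minus strand. Their encoded chains share 168 of 172 residues and their coding sequences are 96.5% identical. The first 120 coding bases are shown because a short read may not tell the genes apart, with the 5 differing bases in capitals.
Myl12a: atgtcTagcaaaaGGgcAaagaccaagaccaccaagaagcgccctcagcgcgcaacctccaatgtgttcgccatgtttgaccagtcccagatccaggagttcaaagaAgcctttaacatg
Myl12b: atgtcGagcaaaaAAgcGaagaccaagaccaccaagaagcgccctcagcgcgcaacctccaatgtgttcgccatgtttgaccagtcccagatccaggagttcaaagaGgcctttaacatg

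The name Myl12b covers 2 gene identifiers. The second (70974119 to 71002208) holds a fusion transcript with 3 of its 4 exons inside the main Myl12a transcript and 1 inside the main Myl12b transcript. In clone 2 the fusion transcript was at 355 to 743 TPM with MyoD and at 0 to 510 TPM without it, the 0 being plasmid replicate 2, against at most 30.0 TPM in clone 1 and 11.3 TPM in WT. The main Myl12b transcript was at 222 to 317 TPM in clone 2, 60.9 to 90.8 TPM in clone 1 and 92.5 to 136 TPM in WT. The summed TPM of Myl12a and Myl12b was 803 to 1632 in clone 2, 78.4 to 124 in clone 1 and 119 to 174 in WT. Without the second identifier, Myl12b was above WT in clone 2 by 1.05 (limma adjusted p = 1.90e-06) and differed by 0.26 with MyoD in clone 2 (adjusted p = 0.160). Values of Myl12a and Myl12b taken singly are therefore uncertain.

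**Figure D5:**
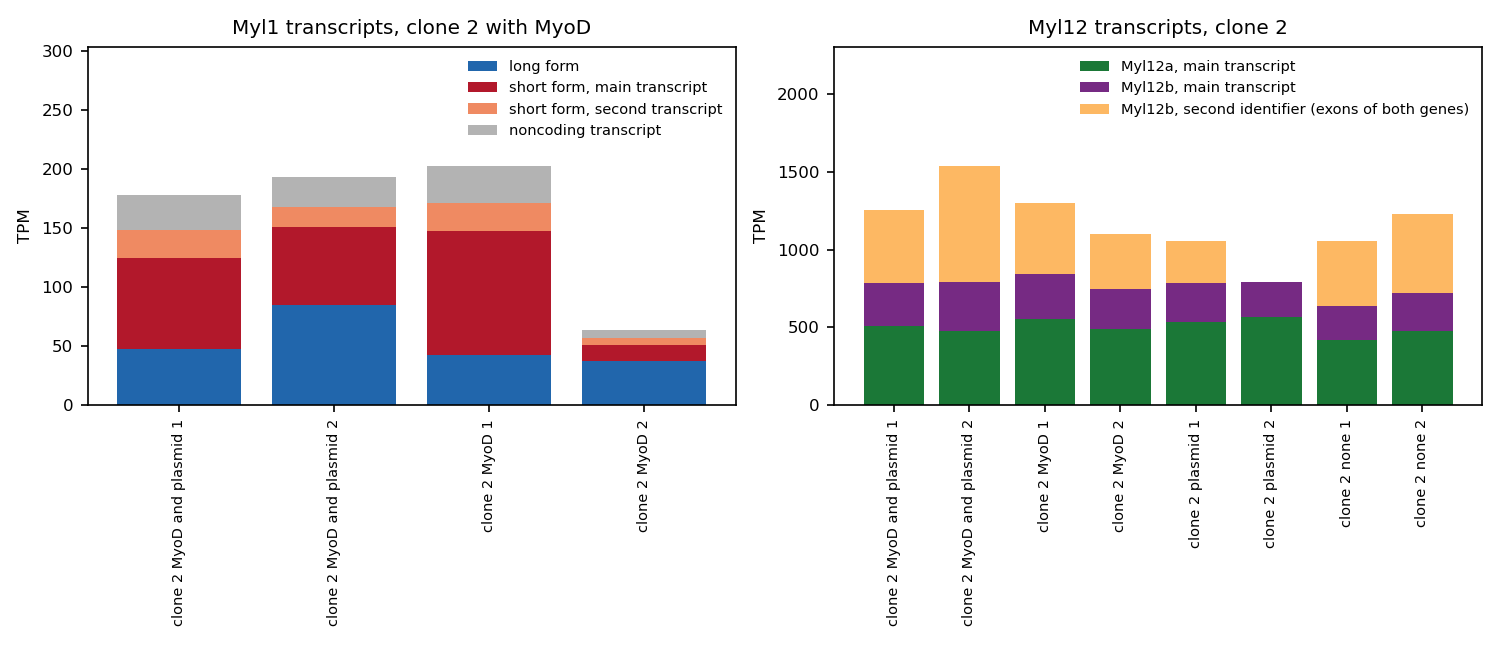
Left, TPM of Myl1 transcripts stacked for the 4 clone 2 libraries given MyoD, and right, TPM of the main Myl12a and Myl12b transcripts stacked for the 8 clone 2 libraries, where each bar is 1 library. The long form is 24.8 to 65.6% of coding Myl1, and the fusion transcript, which joins exons of both genes, is at 0 in plasmid replicate 2 and up to 743 TPM elsewhere.

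Heavy chains, the partners of the light chains, were set beside them. None of the 9 sarcomeric heavy chain genes listed passed the filter on named transcripts, where their sum was at most 2.37 TPM. With unnamed transcripts assigned, the summed heavy chain TPM with MyoD was 41.1 and 25.1 in clone 2, and 31.4 and 44.0 with plasmid as well. In clone 1 it was 3.64 and 0.582, and 1.04 and 5.89 with plasmid as well. It was 4.61 and 3.21 in WT, and 7.32 and 12.9 with plasmid as well, so clone 1 and WT overlapped and clone 2 stood above both.

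On that assignment 4 of 6 sarcomeric heavy chains tested rose with MyoD in clone 2, against 13.0% of all genes called, with a list median of 1.49 against −0.229 for all genes. Myh3, the embryonic heavy chain, rose by 3.86 ± 0.368 (limma adjusted p = 2.56e-06) and was at 13.6, 13.2, 8.70 and 21.4 TPM. Myh1 (3.02), Myh4 (1.59), both of adult fast fibres, and Myh7b (1.40) also rose. Myh4 and Myh7b were listed at 0 in every library outside clone 2 with MyoD. They passed the filter only through that group, so the shares of all genes called are no fair measure for them. In WT 1 of 6 rose, Myh1 at 2.29 (adjusted p = 0.0443), and in clone 1 0 of 6 did, with 1 of 6 at an unadjusted p under 0.05. The clone 2 response exceeded that of WT for Myh3, by 2.28 (adjusted p = 0.0139), and for Myh7b, by 1.40. These were 2 of 6 where 6.73% of all genes were called. For Myh7b the difference restates its presence in clone 2 with MyoD alone, and that share is again no fair measure.

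Of 4 nonmuscle and smooth muscle heavy chains, the 2 tested, Myh9 and Myh10, were called lower with MyoD in clone 2, where 18.9% of all genes were called. On the log2(TPM + 1) scale Myh9 fell by 3.04 ± 0.701 (limma adjusted p = 0.00504) and Myh10 fell by 1.93 ± 0.443 (adjusted p = 0.00485). Their median was −2.48 against −0.334 for all genes. Myh9 was at 1.18 to 29.0 TPM with MyoD and 64.7 to 103 TPM without it, and with unnamed transcripts assigned at 15.0 to 36.7 TPM against 77.1 to 103 TPM. The nonmuscle light chains were not called in this comparison. Under median-of-ratios scaling Myh9 was called lower with MyoD, at −2.07 (adjusted p = 0.0466), and Myh10 at −1.11 was not (adjusted p = 0.223). Without MyoD both heavy chains were higher in clone 2 than in WT on deposited TPM, by 3.39 for Myh9 and 3.81 for Myh10, and neither was called under median-of-ratios scaling, at 0.29 and 0.94.

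Among 14 genes for the kinases and the phosphatase of the regulatory light chain, 11 were tested, and 0 rose and 5 fell with MyoD in clone 2, where 18.9% of all genes were called, 2892 of them lower. Their median was −1.08, against −0.334 for all genes. Ppp1r12a, the targeting subunit of the phosphatase, fell by 2.41. With unnamed transcripts assigned, 0 of 14 were called against 13.0% of all genes, with 5 of 14 at an unadjusted p under 0.05, and under median-of-ratios scaling 0 of 11, with 3 of 11. Other muscle light chains gave 1 tested gene of 5. Myl9, a smooth muscle and nonmuscle regulatory chain, was at 320 to 364 TPM with MyoD and 363 to 458 TPM without it in clone 2, and without MyoD clone 2 was above WT by 4.31 ± 0.201, and by 1.08 under median-of-ratios scaling. Myl2, Myl3 and Myl10 were listed at 0 in all libraries, and Myl7, the atrial regulatory chain, was at most 1.83 TPM.

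Of 9 thick filament partners and myosin chaperones, 4 were tested, and with MyoD 1 of 4 rose in clone 2, 0 in clone 1, where 1 of 4 had an unadjusted p under 0.05, and 1 in WT, against 18.9%, 0.0959% and 0.150% of all genes called. Mybph, a myosin-binding protein, rose by 2.67 ± 0.521 with MyoD in clone 2 (limma adjusted p = 0.00155), where it was at 0 to 28.7 TPM with MyoD and listed at 0 without it, a call that median-of-ratios scaling ended (1.35, adjusted p = 0.0672). In WT the gene was Smyd1, needed for myosin folding in muscle and named here after its values were seen, at 0 to 3.79 TPM in clone 2 and 4.32 to 10.0 TPM in WT with MyoD. Its response was lower in clone 2 than in WT, at −1.86 (adjusted p = 0.0350), which was not called with unnamed transcripts assigned. With that assignment 4 of 8 rose in clone 2, 1 in clone 1 and 2 in WT, against 13.0%, 0.115% and 0.135% of all genes called. Of 8 skeletal muscle markers, 7 were tested, and with MyoD 5 rose in clone 2, 0 in clone 1 and 2 in WT, against 18.9%, 0.0959% and 0.150% of all genes called. In clone 1 also 0 of 7 had an unadjusted p under 0.05. When unnamed transcripts were assigned, 8 were tested and 7 rose in clone 2, 1 in clone 1 and 3 in WT, against 13.0%, 0.115% and 0.135% of all genes. The gene that rose in clone 1 was Ttn, the giant spring protein of the sarcomere, at 3.64 (limma adjusted p = 0.000107). Tnnc2, a fast troponin, rose by 7.48 and Myog, a myogenic factor, by 6.36 in clone 2. The summed TPM of these markers with MyoD was 261 to 634 in clone 2, 0.0185 to 7.48 in clone 1 and 9.34 to 13.7 in WT on named transcripts, and 403 to 765 in clone 2, 20.8 to 45.0 in clone 1 and 59.7 to 82.5 in WT with unnamed transcripts assigned. Fibroblast markers went the other way in clone 2, with 0 of 10 higher and 6 lower with MyoD, where 18.9% of all genes were called. Under median-of-ratios scaling 4 were lower, where 369 of 16227 genes were called lower. Without ribosomal and mitochondrial sequence 4 were lower, where 1569 of 21283 genes were. The fibroblast markers had a summed TPM of 2874 to 4536 with MyoD against 8665 to 14965 without it. The part of these shifts in the light chain result was not tested. Of 5 smooth muscle markers 3 were tested. On deposited TPM Tagln rose and Smtn fell with MyoD in clone 2, where 18.9% of all genes were called. Neither was called under median-of-ratios scaling (0.94 and −0.58). With unnamed transcripts assigned 0 of 5 rose and 2 fell, against 13.0% of all genes called. Of 4 neuron markers 1 was tested and was not called. None of the cardiac, macrophage or epithelial markers passed the filter.

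The genes whose pattern was most like that of Mylpf over the 24 libraries, each gene centred within its line, were Tnnc1 (r = 0.995), Tnnc2 (0.994), Cox8b (0.978), Tnni2 (0.970) and Ckm (0.968), with Myl1 at 0.967. Those most like Myl6 were Ifi35 (0.787), Srp14 (0.725), Wdr77 (0.675), Golph3 (0.674) and Arf5 (0.664), and Mylpf and Myl6 had r = 0.129. These correlations describe 24 libraries among 11860 genes, and libraries of a line share their depth and ribosomal share. Centred Mylpf varied mostly between the clone 2 libraries with MyoD and those without it. A high r to Mylpf therefore largely restates that difference.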

How the data were processed

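The deposited files are transcript assemblies of 24 RNA libraries, 2 for each of 12 groups taken from the sample titles. Per the labels' protocols, polyadenylated RNA was turned into cDNA by a low-input kit without strand information, tagmented, and read as 100 nt pairs. For alignment to mm10 and assembly, HISAT2 2.1.0 and StringTie 1.3.3 are listed in the submitters' processing notes, beside SAMtools 1.3, Trimmomatic 0.36 and bcl2fastq 2.19, while the file headers name StringTie 2.1.2 with GENCODE vM21 as guide. The authors deposited coverage, FPKM and TPM per transcript, and the TPM was used as deposited. No read counts were used, so the reads behind a value are unknown. A gene listed at 0 can be a failed assembly: Actb ranged over 60.2 to 5622 TPM, but Gapdh over 0.720 to 17.5 TPM.

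TPM was summed per library over transcripts with a gene's reference name, which held 27.4 to 82.5% of TPM per library. In an alternative, unnamed transcripts were given to the gene sharing at least 50% of their exonic length on the same strand. Genes at 1 TPM or more in at least 2 libraries were tested on log2(TPM + 1) with limma 3.58.1 (R 4.3.3) and a trend of variance on mean, with 1 mean per group and 12 residual degrees of freedom. This scale understates changes of low genes. Comparisons numbered 9: MyoD against no MyoD in each line over both plasmid states, the differences of that response between each clone and WT, each clone against WT without MyoD, and plasmid against none over the lines, with and without MyoD. A call needed a Benjamini-Hochberg adjusted p under 0.05 over all genes of a comparison and a log2 difference of at least 1 in size.

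The alternatives were assigned unnamed transcripts, a pseudocount of 0.1, no filter, median-of-ratios scaling, rescaling without ribosomal and mitochondrial sequence, a replicate block, contrasts without plasmid groups, fits of 1 line, and each library left out. Leaving out the second Myl12b identifier was added after seeing the data. Python 3.11.15, pandas 2.3.3 and Biopython 1.88 were used for tables and alignments, sequences came from mm10 and RefSeq, and the test was checked on simulated data. The genes and lists were chosen with earlier results of these data known. Genes of a list were named where called, up to 4 by size with MyoD in clone 2, and like genes by the 5 highest r without predicted genes.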

Additional observations from a re-analysis of the deposited data

Results flagged for a closer look

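The response to MyoD differed between clone 2 and WT in a test of the difference itself for the fast regulatory chain Mylpf, at 6.13 on the log2(TPM + 1) scale (limma adjusted p = 2.62e-08), and for the fast essential chain Myl1, at 4.48 (adjusted p = 3.64e-05), which median-of-ratios scaling brought to 1.83 and below a call (adjusted p = 0.166). With MyoD every clone 2 library was above every WT library for both chains. The share of all genes separated in this way was not counted, and without MyoD 10328 of 16680 genes were called higher in clone 2 on deposited TPM. Groups of 2 libraries are too small for a check of single far-off samples.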

How the results depend on the processing

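Under median-of-ratios scaling the called genes numbered 41 for MyoD in WT, 230 in clone 1, 650 in clone 2, 50 and 291 for the clone 1 and clone 2 responses against WT, 455 and 5303 for clone 1 and clone 2 against WT, 3 for plasmid without MyoD and 27 with it. Without ribosomal and mitochondrial sequence they were 42, 103, 1747, 12 and 776 for the same MyoD comparisons and 5 for plasmid without MyoD. On deposited TPM these were 25, 16, 3149, 2, 1810, 693, 10635, 8 and 45. A pseudocount of 0.1 gave 65 in clone 1, 12 and 1089 for the responses, 14 and 73 for plasmid. Without a filter the clone 1 response gave 7 and plasmid without MyoD 13. Without plasmid groups, clone 1 gave 32 and the clone 2 response 856. Fits of 1 line gave 13 in WT, 3 in clone 1 and 1812 in clone 2. With unnamed transcripts assigned, plasmid with MyoD gave 10, and the median sarcomeric share was 3.58% in clone 1 with MyoD and 0.280% in clone 2 without it (0.0541% on named transcripts).

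The replicate numbers do not pair the libraries: over 66 pairs of groups the correlation of deviations was −0.0626 to 0.0491. With a replicate block the clone 1 response gave 1 call in place of 2, clone 2 against WT gave 10630, and no light chain call changed.

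Of the light chain values, some without a call changed sign. With unnamed transcripts assigned these were Myl6b with MyoD in WT (−0.33) and clone 1 (0.095) and in the clone 1 response (0.42), and Myl6 in the clone 2 response (0.20) and clone 1 against WT (−0.41). Without plasmid groups they were Myl6b in WT (−0.29), clone 1 (1.10) and the clone 1 response (1.39), Myl12a in clone 1 (−0.33), and Myl12b in WT (0.00096), clone 2 (−0.050) and the clone 2 response (−0.051). Without ribosomal and mitochondrial sequence they were Myl12a (−0.14) and Myl12b (−0.039) in clone 1. Under median-of-ratios scaling they were Myl6b (0.33) and Myl12b (0.00051) for clone 1 against WT and Myl6b (−0.87) for clone 2 against WT, while Myl12b there (−1.21) was called. Without the second Myl12b identifier, Myl12b with plasmid and MyoD was −0.012. Calls gained were Myl1 in clone 1 (1.98) and Myl12b in the clone 2 response (1.23) under median-of-ratios scaling, and Myl6 in the clone 1 response under that scaling (−2.86) and without ribosomal and mitochondrial sequence (−3.24). With unnamed transcripts assigned, the Myl6 value in the clone 1 response was −0.16 and was not called. The cause was not tested.

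Leaving out 1 library at a time, calls numbered 4 to 150 for MyoD in clone 1, where untreated replicate 2 (4), plasmid replicate 1 (8), MyoD replicate 2 (150) and both-agents replicate 1 (126) mattered most, 1 to 34 for the clone 1 response, 342 to 750 for clone 1 against WT, with 342 without WT plasmid replicate 1 and 413 without untreated WT replicate 2, 7 to 53 for plasmid without MyoD and 30 to 203 with it. For plasmid without MyoD the count moved by over 1.5 times without each of the 4 clone 2 libraries (15 to 53). With MyoD it did so without each of the 4 clone 2 libraries (84 to 203) and without clone 1 MyoD replicate 2 (90). Sign changes occurred in Myl6b for MyoD in WT (−0.47 to 0.59), clone 1 (−0.45 to 0.13), the clone 1 response (−0.75 to 0.31), clone 1 against WT (−0.47 to 0.11) and plasmid without MyoD (−0.30 to 0.085), in Myl12a for clone 1 (−0.18 to 0.29), clone 1 against WT (−0.21 to 0.78) and plasmid without MyoD (−0.20 to 0.47), in Myl4 for clone 2 and its response (−0.71 to 0.47) and plasmid with MyoD (−0.46 to 0.33), and in Myl12b for plasmid with MyoD (−0.018 to 0.15). Calls were gained by Myl12a in the clone 2 response (−1.12, without untreated WT replicate 2), Myl12b there (1.04, without clone 2 plasmid replicate 1) and Myl6 in the clone 1 response (−2.87, without its both-agents replicate 2). A lone library left in a group is assumed to vary like the others.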
